A study of Homo sapiens with 6 samples.

Results

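The 43 genes described here are 29 transcriptional targets of p53 and 14 regulators of apoptosis. They were chosen by gene symbol from the 23569 genes of the deposited expression table, and all 43 were found. All 43 also reached the minimum level for testing, a mean of at least 0.1 FPKM (fragments scaled to gene length and to the library's total) over the 6 libraries, which 15353 genes reached in all. The study sequenced RNA from TFK1 cells, a line established from a carcinoma of the extrahepatic bile duct. Cells of the negative control genotype (oeNC, n = 3 libraries) were set against cells with STUB1 overexpression (oeSTUB1, n = 3 libraries), and the labels list no experimental treatment for either group. STUB1 is a chaperone-linked E3 ubiquitin ligase. Per the study's methods, lentivirus carrying the STUB1 coding sequence in the pHAGE vector was used to make stably transduced cells under puromycin selection, and no cloning step is given, so both groups are taken as selected populations of 1 cell line. No label says that the libraries of a group came from separate cultures or transductions, and p-values therefore measure only the spread between these libraries, which may be technical.

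p53 is a transcription factor that is kept low by the ubiquitin ligase MDM2 and becomes stable after DNA damage or other stress. Its targets stop the cell cycle, repair DNA, change metabolism, feed back on p53 itself or prepare the cell to die. Mitochondrial apoptosis is set by the BCL2 family. The effectors BAX and BAK1 open the outer mitochondrial membrane, prosurvival members such as BCL2, BCL2L1 and MCL1 hold them back, and BH3-only proteins such as BBC3, PMAIP1, BID and BCL2L11 counter the prosurvival members. Released cytochrome c then assembles APAF1 and CASP9 into the apoptosome, while death receptors act through CASP8, and XIAP and BIRC2 are inhibitor of apoptosis proteins. Many of these steps are set at the level of the protein, which was not measured in these libraries.

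p53 binds DNA as a tetramer at a pair of decamers of 10 bases each. The decamer consensus reads the same on both strands, so a search on one strand covers both. RefSeq promoter windows on GRCh38.p14, running from 250 bases before to 50 bases after an annotated start, were available for 34 of the 43 genes, in 57 windows. A decamer was present in 9 of the 57 windows (15.8%), against 2329 of 35116 windows of all genes (6.63%). The windows of these genes were also richer in the letters GGGCGG, counted on both strands, which 75.4% of them held against 44.95% of all windows. The matches are shown because 2 of them are in windows of genes that rose in oeSTUB1 (PLK2 and BAK1), while the windows of the other genes that rose held none (CDKN1A, PLK3 and TIGAR) or were missing from the table (MCL1). A decamer was thus held by 2 of the 5 genes that rose and had a window, and by 7 of the 29 other genes with a window. A link between the decamer and the rise was not tested. Capitals mark the decamer, and lower case marks the bases on either side, 5′ to 3′ on the strand of the gene. Distances are from the RefSeq start of the window.
PLK2, chr5:58460199-58460228, minus strand, 132 bases before the start: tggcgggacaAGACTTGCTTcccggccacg
BAK1, chr6:33580330-33580359, minus strand, 73 bases before the start: aaagtgggcgGGACATGCTCctgggcctgg
SESN1, chr6:109009018-109009047, minus strand, 49 bases before the start: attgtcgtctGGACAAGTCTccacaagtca
FAS, chr10:88991299-88991328, plus strand, 122 bases before the start: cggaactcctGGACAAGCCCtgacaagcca
AEN, chr15:88621296-88621325, plus strand, 34 bases before the start: agtcggagccGGGCTTGCCCgggcatgtgg
CASP8, chr2:201257904-201257933, plus strand, 121 bases before the start: ctttccaataAAGCATGTCCagcgctcggg
DDB2, chr11:47214979-47214999, plus strand, 5 bases after the start: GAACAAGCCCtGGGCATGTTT
The DDB2 window held the only pair of decamers no more than 13 bases apart among the 57 windows, and 10 of the 35116 windows (0.0285%) held such a pair. Genes have several annotated starts, and of the matches printed only that of BAK1 lies outside the span of its gene in GENCODE, while those of PLK2, SESN1, FAS, AEN, CASP8 and DDB2 lie within it. FDXR and CASP9 each held 1 decamer, 11 and 188 bases before the start. A match of letters is a description of the window and not a bound site, and a window without a match says nothing of elements farther away.

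The libraries held 33106564 to 36744521 fragments. STUB1 itself measured 32.9, 33.0 and 30.9 FPKM in oeNC replicates 1, 2 and 3 and 61.4, 75.0 and 61.9 FPKM in oeSTUB1 replicates 1, 2 and 3, a log2 fold change of 1.03 (SE 0.097, adjusted p = 0.000642). In GENCODE 42.4% of the exonic bases of STUB1 are also those of JMJD8 on the opposite strand. Whether the counting used strand is not given in the sources used here. Replicate 2 of oeSTUB1 stood apart from the other libraries of its group. Its expression values correlated with those of replicates 1 and 3 at Spearman's rho of 0.984 and 0.985, while replicates 1 and 3 correlated at 0.994. Estimates for the members that move with this library are therefore given with and without it. Of the bile duct epithelium markers, KRT8 and KRT18 were abundant in every library, but KRT19 measured only 0.374 to 0.529 FPKM in oeNC and 2.51 to 3.41 FPKM in oeSTUB1. The 8 markers summed to between 7431 and 8008 FPKM in oeNC and between 4733 and 6272 FPKM in oeSTUB1, with 5 lower and 1 higher (KRT19). Fibroblast markers summed to at most 4.05 FPKM and endothelial markers to at most 0.231 FPKM in any library. Immune cell markers summed to 32.4 to 34.7 FPKM in oeNC and 25.8 to 26.6 FPKM in oeSTUB1, of which CD68 made up the most, with PTPRC at no more than 0.280 FPKM and CD3E at no more than 0.108 FPKM.

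The genes that rose in oeSTUB1 were CDKN1A, PLK2, PLK3 and TIGAR among the 29 p53 targets, and MCL1 and BAK1 among the 14 apoptosis regulators. By the same test none of the 43 fell, and none that rose did so by a log2 fold change over 1. All of these calls are from limma at a Benjamini-Hochberg adjusted p under 0.05 over the 15353 genes. Of all genes tested, 13.6% were called in either direction, 7.01% as higher and 6.59% as lower, and 5.2% were called with an absolute log2 fold change over 1. The members stood at 13.8% for the p53 targets and 14.3% for the apoptosis regulators. These shares are close to the 13.6% of all genes called in either direction. All 6 called members were higher, 14% of the 43 genes, where 7.01% of all genes tested were called higher. Of the 2088 genes called over all genes tested, 1076 were higher. The median log2 fold change was 0.08 for the p53 targets and 0.0002 for the apoptosis regulators, against 0.02 for all genes tested. At an unadjusted p under 0.05 there were 11 of the 43 genes, 8 higher and 3 lower (GADD45B, BMF and CASP8), where 29.7% of all genes passed, 16% higher and 13.7% lower. Limma-voom on the recovered fragments called 6 members higher and 1 lower (BMF), and 14.1% of all genes, 7.13% higher and 6.96% lower. The libraries of the groups did not overlap for 17 of the 43 genes, 11 higher and 6 lower (39.5%), and this was true of 38.8% of all genes tested.

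**Figure D1:**
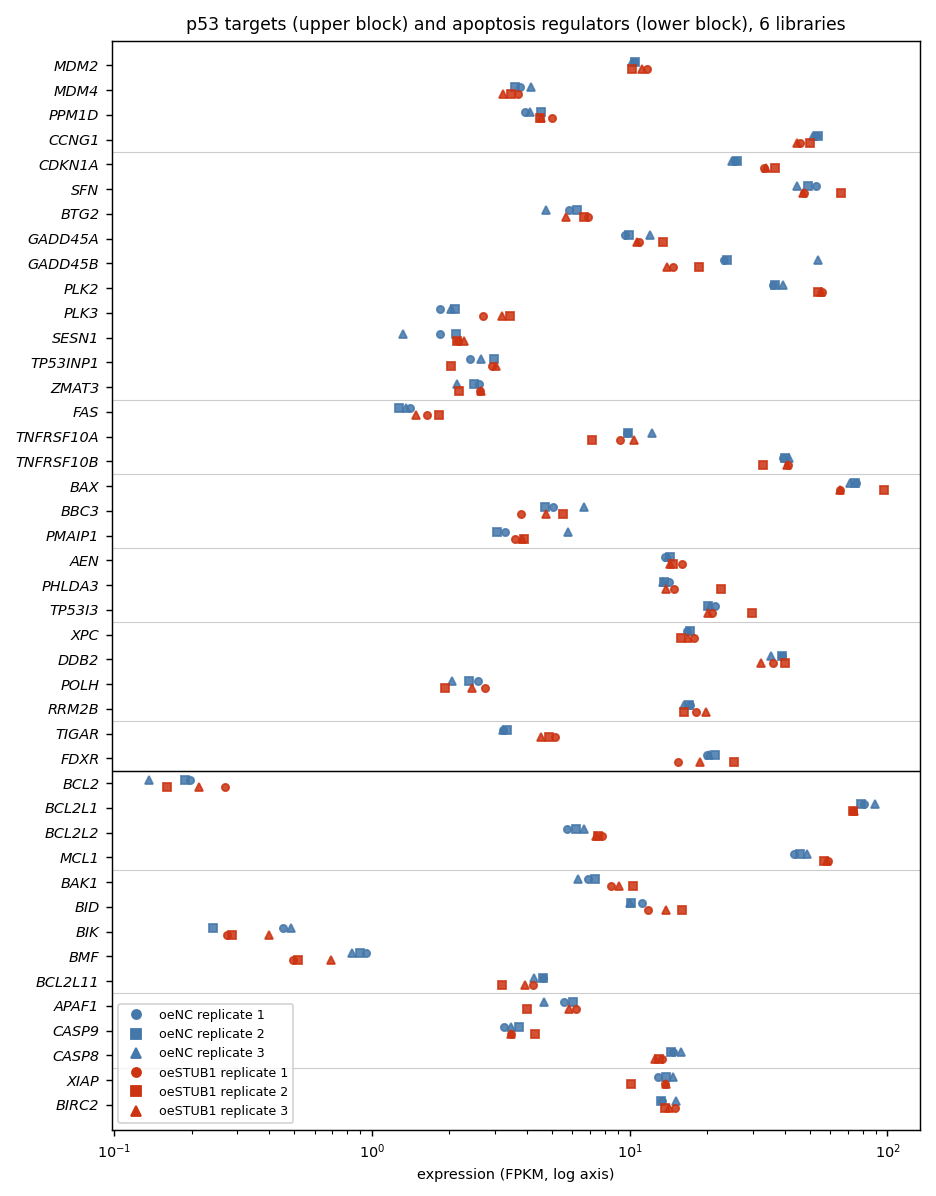
Expression in FPKM (log axis) of the 43 genes, 1 row a gene, in the 3 oeNC libraries (blue) and the 3 oeSTUB1 libraries (red), with the shape giving the replicate number. Levels run from 0.137 FPKM for BCL2 in oeNC replicate 3 to 96.6 FPKM for BAX in oeSTUB1 replicate 2, and the colours overlap in all but 17 rows.

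Without oeSTUB1 replicate 2, 26.8% of all genes tested were called, and 12 of the 43 members. The same 6 genes were still among them. BCL2L2 and BID were added as higher, and CCNG1, GADD45B, BAX and CASP8 as lower. The p53 targets then counted 4 higher and 3 lower, and the apoptosis regulators 4 higher and 1 lower, where 14.8% of all genes were higher and 12% were lower. Without oeSTUB1 replicate 1, 6 members were called higher (BAK1, BID, CDKN1A, PLK2, PLK3 and TIGAR), where 9.16% of all genes were called. Without oeNC replicate 1 only PLK2 was called (6.29% of all genes), without oeNC replicate 2 CDKN1A, PLK2 and TIGAR (6.08%), and without oeNC replicate 3 PLK2 and TIGAR (6.78%). Without oeSTUB1 replicate 3, 3 were higher (CDKN1A, PLK2 and TIGAR) and BMF was lower (10.5%).

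The genes that feed back on p53 changed little. MDM2, the ligase that marks p53 for degradation and is itself a p53 target, measured 10.4, 10.5 and 10.2 FPKM in oeNC replicates 1, 2 and 3 and 11.7, 10.3 and 11.1 FPKM in the oeSTUB1 replicates. The oeSTUB1 libraries spanned a wider range, and the groups overlapped. The log2 fold change was 0.08 with a 95% interval from -0.11 to 0.27 (adjusted p = 0.55). MDM4, a relative of MDM2 that masks the activating part of p53, measured 3.83 ± 0.290 FPKM (SD, n = 3) in oeNC and 3.46 ± 0.231 FPKM in oeSTUB1 (log2 fold change -0.14, adjusted p = 0.417). PPM1D, a phosphatase that switches damage signalling off, had a log2 fold change of 0.15 (adjusted p = 0.356). CCNG1, a cyclin induced by p53, measured 52.9, 53.7 and 51.6 FPKM in oeNC and 45.6, 50.03 and 44.7 FPKM in oeSTUB1. All oeSTUB1 values of CCNG1 were below all oeNC values, with replicate 2 nearest to them. Its log2 fold change was -0.17 (adjusted p = 0.172), and without oeSTUB1 replicate 2 it was -0.22 (adjusted p = 0.00899).

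The genes of cell cycle arrest and growth control held 3 of the 4 p53 targets that rose. CDKN1A, the inhibitor of cyclin-dependent kinases through which p53 arrests the cycle, lies at chr6:36676460-36687339 on the plus strand (GENCODE release 29, GRCh38). It measured 25.7, 26.2 and 24.9 FPKM in oeNC replicates 1, 2 and 3 and 33.2, 36.6 and 33.7 FPKM in oeSTUB1. Every oeSTUB1 library was above every oeNC library, and the gap between the groups was wider than the range within either. The group means stood at a ratio of 1.35, and the log2 fold change was 0.43 (SE 0.074, 95% interval 0.26 to 0.60, adjusted p = 0.0086). The estimate was 0.39 without oeSTUB1 replicate 2 (adjusted p = 0.00142). The call was lost without oeNC replicate 1 (0.43, adjusted p = 0.0551) and without oeNC replicate 3 (0.41, adjusted p = 0.0508).

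PLK2, a polo-like kinase that acts in centriole duplication and is induced by p53, was the firmest of the calls. It lies at chr5:58453982-58460260 on the minus strand, and its window held the decamer printed above. It measured 35.9, 36.6 and 39.3 FPKM in oeNC and 55.8, 53.7 and 55.1 FPKM in oeSTUB1. The groups were far apart for their spread, with a ratio of means of 1.47 and a log2 fold change of 0.56 (SE 0.072, adjusted p = 0.00245). PLK2 was called in each of the 16 alternative analyses, with adjusted p between 0.000455 and 0.0236. PLK3, a stress-responsive kinase of the same family at chr1:44800225-44805990 on the plus strand, measured 1.84, 2.10 and 2.04 FPKM in oeNC and 2.69, 3.42 and 3.19 FPKM in oeSTUB1. It had the largest estimate among the genes that rose, a log2 fold change of 0.61 (SE 0.127, ratio of means 1.56, adjusted p = 0.0183), on 149 to 265 fragments a library. The PLK3 call was lost without oeNC replicate 1 (0.56, adjusted p = 0.0877), oeNC replicate 2 (0.65, adjusted p = 0.0635), oeNC replicate 3 (0.63, adjusted p = 0.0631) or oeSTUB1 replicate 3 (0.59, adjusted p = 0.0569).

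The largest difference among the 43 genes was that of GADD45B, a stress sensor that binds cyclin-dependent kinase complexes, and it did not pass the test. GADD45B measured 23.3, 23.8 and 54.0 FPKM in oeNC and 14.8, 18.6 and 13.97 FPKM in oeSTUB1. All oeSTUB1 values were the lower ones, and oeNC replicate 3 was far above the other oeNC libraries. The log2 fold change was -0.98 (SE 0.305, adjusted p = 0.0739). It was -0.59 without oeNC replicate 3 (adjusted p = 0.0575) and -1.11 without oeSTUB1 replicate 2 (adjusted p = 0.0467). GADD45A, its paralogue and the better known p53 target, gave 0.15 (adjusted p = 0.476) and 0.04 without oeSTUB1 replicate 2. The values of GADD45B and of the genes CCNG1, BCL2L2, BID and BMF are given by library because of their results.

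The other genes of this group did not pass. SESN1, a sestrin that restrains growth signalling, measured 1.77 ± 0.407 FPKM in oeNC and 2.19 ± 0.0694 FPKM in oeSTUB1, with no overlap between groups and a log2 fold change of 0.32 (adjusted p = 0.259). BTG2, an antiproliferative factor, gave 0.20 (adjusted p = 0.356). SFN, which holds CDC25C and cyclin complexes in the cytoplasm, gave 0.11 (adjusted p = 0.637) and -0.05 without oeSTUB1 replicate 2. TP53INP1, a cofactor of p53 in stress, gave -0.02 (adjusted p = 0.944), and ZMAT3, an RNA-binding zinc finger protein, gave 0.04 (adjusted p = 0.867). Without that library these estimates were 0.15 and 0.13.

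**Figure D2:**
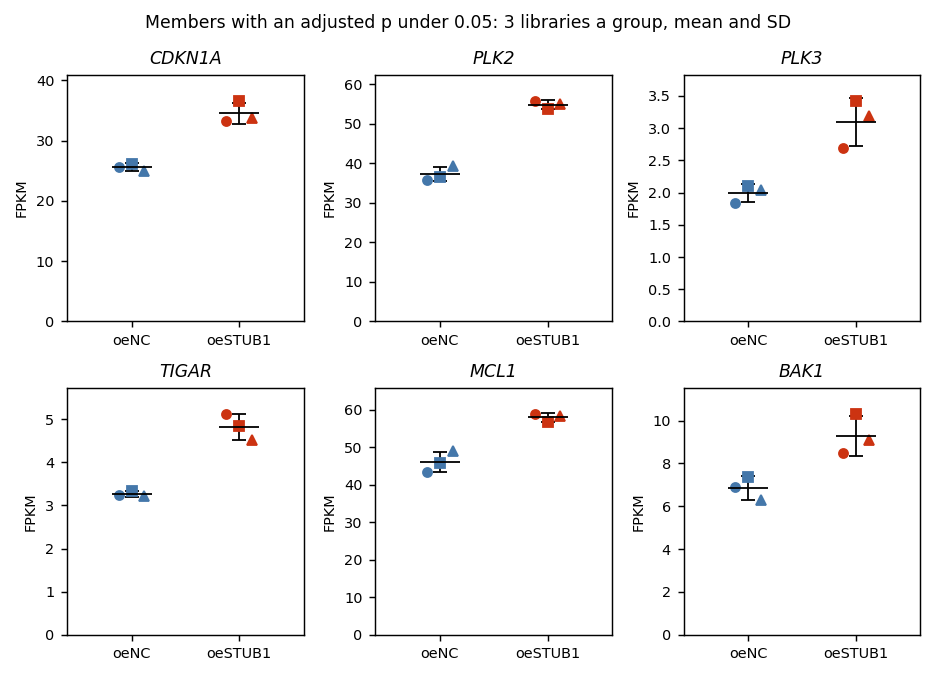
FPKM (linear axis from 0) of the 6 genes that rose in oeSTUB1, with 1 point a library, the replicate number as the shape, and the mean and SD of the 3 libraries of each group as lines. In each panel the lowest oeSTUB1 library is above the highest oeNC library, and the ratio of means runs from 1.26 for MCL1 to 1.56 for PLK3.

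Death receptor genes showed no call. FAS, the receptor for FAS ligand, measured 1.40, 1.28 and 1.35 FPKM in oeNC and 1.64, 1.82 and 1.48 FPKM in oeSTUB1. All oeSTUB1 values were above the oeNC values by a margin smaller than the range within oeSTUB1, and the log2 fold change was 0.27 (95% interval -0.03 to 0.57, adjusted p = 0.207). TNFRSF10A and TNFRSF10B, the receptors for TNFSF10 (TRAIL), gave -0.26 (adjusted p = 0.304) and -0.09 (adjusted p = 0.608). Without oeSTUB1 replicate 2 the estimates were 0.20 for FAS, -0.11 for TNFRSF10A and 0.02 for TNFRSF10B.

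The members of the BCL2 family that p53 induces did not move together. BAX measured 75.3, 74.6 and 71.4 FPKM in oeNC and 65.3, 96.6 and 65.6 FPKM in oeSTUB1. Replicates 1 and 3 of oeSTUB1 lay below all oeNC libraries and replicate 2 lay above them. With all libraries the log2 fold change was 0.02 (95% interval -0.33 to 0.36, adjusted p = 0.959), and without oeSTUB1 replicate 2 it was -0.17 (adjusted p = 0.0239), so the direction of BAX rests on 1 library. BBC3 (PUMA), which binds all prosurvival members, measured 5.03, 4.69 and 6.64 FPKM in oeNC and 3.80, 5.52 and 4.75 FPKM in oeSTUB1. Its groups overlapped, with a log2 fold change of -0.21 (95% interval -0.62 to 0.19, adjusted p = 0.458) and -0.34 without oeSTUB1 replicate 2 (adjusted p = 0.164). PMAIP1 (NOXA), which mainly opposes MCL1, measured 3.28, 3.07 and 5.77 FPKM in oeNC and 3.61, 3.90 and 3.82 FPKM in oeSTUB1. The oeSTUB1 libraries were close together and lay between oeNC replicate 3 and the other oeNC libraries. The log2 fold change of PMAIP1 was -0.04 (adjusted p = 0.929) and 0.24 without oeNC replicate 3 (adjusted p = 0.272).

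Other p53 targets of cell death gave small estimates. AEN, a nuclease of apoptotic DNA breakdown, had a log2 fold change of 0.10 (adjusted p = 0.453) with groups that did not overlap. PHLDA3, a repressor of AKT, measured 14.2, 13.6 and 13.5 FPKM in oeNC and 14.9, 22.5 and 13.9 FPKM in oeSTUB1. Its estimate of 0.28 (adjusted p = 0.313) became 0.07 without oeSTUB1 replicate 2. TP53I3, a quinone reductase, gave 0.16 (adjusted p = 0.501) and -0.02 without that library.

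Genes of DNA repair and nucleotide supply lay close to 0. XPC, which recognises damage in nucleotide excision repair, gave a log2 fold change of -0.01 (95% interval -0.19 to 0.16). DDB2, which recognises ultraviolet damage and has the pair of decamers, measured 37.7 ± 2.08 FPKM in oeNC and 36.2 ± 3.73 FPKM in oeSTUB1, a log2 fold change of -0.06 (95% interval -0.29 to 0.16). POLH, a polymerase that reads past lesions, gave 0.01 (95% interval -0.36 to 0.38), and RRM2B, a ribonucleotide reductase subunit, gave 0.10 (95% interval -0.11 to 0.31). Their adjusted p lay between 0.506 and 0.975. Without oeSTUB1 replicate 2 the estimates were 0.03 for XPC, -0.14 for DDB2, 0.15 for POLH and 0.17 for RRM2B, with adjusted p between 0.0592 and 0.72.

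TIGAR, which lowers glycolytic flux and favours the pentose phosphate pathway, was the fourth p53 target that rose. It measured 3.23, 3.34 and 3.23 FPKM in oeNC and 5.12, 4.85 and 4.51 FPKM in oeSTUB1. The oeNC libraries were nearly equal and all oeSTUB1 libraries were well above them, with a ratio of means of 1.48 and a log2 fold change of 0.55 (SE 0.094, adjusted p = 0.00849). TIGAR lies at chr12:4307763-4354593 on the plus strand, and 42.6% of its exonic bases in GENCODE are shared with AC008012.1, an annotated gene on the same strand that is not among the symbols of the table. How fragments in shared bases were assigned is not given in the sources used here, so the TIGAR value may hold both. The TIGAR length recovered from the FPKM steps was 8209 bases, against 4017 exonic bases in GENCODE. The gene as counted was therefore not the GENCODE gene, and the share may differ for it. TIGAR was not alone in this. The recovered and GENCODE lengths were 11320 and 3540 bases for POLH, 9284 and 4253 for FAS, and 1429 and 2316 for STUB1. The call was lost without oeNC replicate 1 (0.54, adjusted p = 0.052). FDXR, a mitochondrial reductase that is both a p53 target and part of iron-sulfur cluster synthesis, gave -0.08 (adjusted p = 0.781) and -0.27 without oeSTUB1 replicate 2 (adjusted p = 0.0534).

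**Figure D3:**
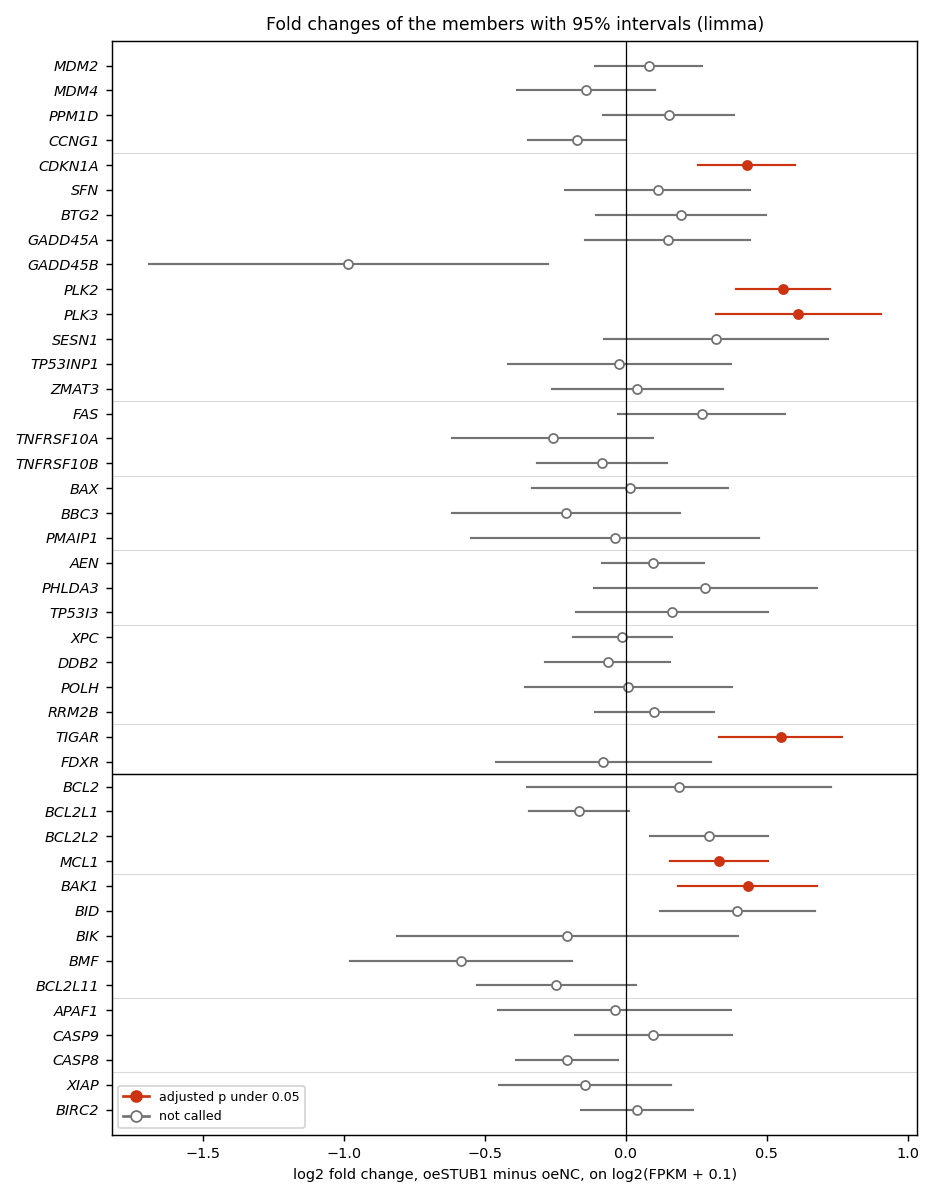
Log2 fold change of oeSTUB1 minus oeNC on the log2(FPKM + 0.1) scale for each of the 43 genes, with 95% intervals from limma as lines, filled red where the adjusted p is under 0.05 and open grey otherwise. The filled points lie between 0.33 (MCL1) and 0.61 (PLK3), the widest interval is that of GADD45B, and 18 of the 43 points are below 0.

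Among the prosurvival genes, MCL1 rose and BCL2L1 had the opposite sign. MCL1, a short-lived protein that restrains BAK1, lies at chr1:150574551-150579738 on the minus strand. It measured 43.5, 45.9 and 48.9 FPKM in oeNC and 58.8, 56.7 and 58.3 FPKM in oeSTUB1. All oeSTUB1 libraries were above all oeNC libraries, with a ratio of means of 1.26 and a log2 fold change of 0.33 (SE 0.075, adjusted p = 0.026). The MCL1 call was made in 8 of the 16 alternative analyses, and its adjusted p ranged from 0.00517, without oeSTUB1 replicate 2, to 0.142, without oeNC replicate 1. It was 0.126 without oeNC replicate 2, 0.0568 without oeNC replicate 3, 0.0698 without oeSTUB1 replicate 1 and 0.0706 without oeSTUB1 replicate 3, with log2 fold changes of 0.33, 0.37, 0.32 and 0.33.

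BCL2L1, whose long form BCL-XL is prosurvival and whose short form is not, measured 81.0, 78.6 and 89.1 FPKM in oeNC and 73.7, 73.4 and 74.2 FPKM in oeSTUB1. The oeSTUB1 libraries were nearly equal and lay below the oeNC libraries, and the log2 fold change of -0.17 did not pass (95% interval -0.34 to 0.01, adjusted p = 0.195). The table has 1 row for the gene, so its forms are summed. In GENCODE 42.97% of the exonic bases of BCL2L1 are also those of ABALON on the opposite strand, which measured 0.150 FPKM on average in oeNC and 0.0832 FPKM in oeSTUB1, and whether the counting used strand is not given in the sources used here. BCL2L2 (BCL-W) measured 5.69, 6.19 and 6.63 FPKM in oeNC and 7.80, 7.52 and 7.41 FPKM in oeSTUB1. Its groups did not overlap, with a log2 fold change of 0.29 that missed the threshold (adjusted p = 0.0723) and passed it without oeSTUB1 replicate 2 (0.30, adjusted p = 0.0322). BCL2 itself was near the minimum level for testing of 0.1 FPKM, at 0.197, 0.189 and 0.137 FPKM in oeNC and 0.269, 0.160 and 0.215 FPKM in oeSTUB1. These values rest on 52 to 96 fragments a library and overlapped, with a log2 fold change of 0.19 (95% interval -0.35 to 0.73, adjusted p = 0.629) and 0.32 without oeSTUB1 replicate 2 (adjusted p = 0.385).

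Among the effector and BH3-only genes BAK1 rose, and BID, BMF, BCL2L11 and BIK did not pass. BAK1, the effector that resides in the mitochondrial membrane, lies at chr6:33572547-33580293 on the minus strand. It measured 6.88, 7.37 and 6.28 FPKM in oeNC and 8.46, 10.3 and 9.07 FPKM in oeSTUB1. Every oeSTUB1 library was above every oeNC library, with a ratio of means of 1.36 and a log2 fold change of 0.43 (SE 0.106, adjusted p = 0.0345). It was 0.36 without oeSTUB1 replicate 2 (adjusted p = 0.0192). BAK1 was called in 8 of the 16 alternative analyses, and the call was lost without oeNC replicate 1 (0.44, adjusted p = 0.121), oeNC replicate 2 (0.49, adjusted p = 0.0796), oeNC replicate 3 (0.37, adjusted p = 0.13) or oeSTUB1 replicate 3 (0.45, adjusted p = 0.0752).

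BID, which is cut by CASP8 and links death receptors to mitochondria, measured 11.2, 10.1 and 10.1 FPKM in oeNC and 11.8, 15.9 and 13.8 FPKM in oeSTUB1. The oeSTUB1 values were all higher but spread widely, and the log2 fold change was 0.40 (adjusted p = 0.0675). BID was called without oeSTUB1 replicate 1 (0.51, adjusted p = 0.0317) and without oeSTUB1 replicate 2 (0.29, adjusted p = 0.0429). BMF, a BH3-only protein released from the cytoskeleton, was low, at 0.952, 0.901 and 0.839 FPKM in oeNC and 0.497, 0.517 and 0.696 FPKM in oeSTUB1. Its oeSTUB1 libraries were all below its oeNC libraries, with a log2 fold change of -0.58 (SE 0.17, adjusted p = 0.0598) on 85 to 164 fragments a library. Without oeSTUB1 replicate 3 it was -0.71 (adjusted p = 0.0428). BCL2L11 (BIM), an activator of the effectors, measured 4.60, 4.60 and 4.24 FPKM in oeNC and 4.21, 3.20 and 3.94 FPKM in oeSTUB1. Its groups nearly touched, at 4.24 against 4.21 FPKM, and the log2 fold change was -0.25 (95% interval -0.53 to 0.04, adjusted p = 0.221) and -0.13 without oeSTUB1 replicate 2 (adjusted p = 0.245). BIK was close to the floor with 8 to 17 fragments a library and gave -0.21 (95% interval -0.81 to 0.40, adjusted p = 0.637).

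The apoptosome, caspase and inhibitor genes held no call. CASP8, the initiator caspase of death receptors, measured 14.7, 14.5 and 15.9 FPKM in oeNC and 13.3, 13 and 12.5 FPKM in oeSTUB1. The oeSTUB1 libraries were all lower, with a log2 fold change of -0.21 (95% interval -0.39 to -0.03, adjusted p = 0.12) that passed without oeSTUB1 replicate 2 (-0.21, adjusted p = 0.0444). CASP8, BCL2L11 and TP53I3 lie on chromosome 2, where the median log2 fold change over 1031 tested genes was -0.21 and 22.7% of them were above 0. The medians of the other chromosomes that hold members were between -0.04 and 0.07. The part of the chromosome in these differences was not tested. APAF1, the apoptosome scaffold, gave -0.04 (adjusted p = 0.906), and its partner CASP9 gave 0.10 (adjusted p = 0.631). XIAP, which blocks caspases directly, gave -0.15 (adjusted p = 0.506) and BIRC2, a ubiquitin ligase of receptor signalling, gave 0.04 (adjusted p = 0.794). Without oeSTUB1 replicate 2 the estimates were 0.15 for APAF1, -0.0027 for CASP9, 0.0004 for XIAP and 0.07 for BIRC2.

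Levels per length were also summed over the BCL2 family genes among the members, as a description with no test. The 4 prosurvival genes summed to 130.3, 130.8 and 144.7 FPKM in oeNC and 140.5, 137.8 and 140.1 FPKM in oeSTUB1, so the oeSTUB1 sums lay within the oeNC range. BCL2L1 and MCL1 made up 94.3% to 95.5% of that sum in every library. The share of MCL1 was 33.4%, 35.1% and 33.8% in oeNC and 41.8%, 41.1% and 41.6% in oeSTUB1, which do not overlap. The effectors BAX and BAK1 summed to 82.1, 82.0 and 77.6 FPKM in oeNC and 73.7, 106.9 and 74.6 FPKM in oeSTUB1, and the 6 BH3-only genes to 23.6 to 28.1 FPKM in oeNC and 24.2 to 29.4 FPKM in oeSTUB1. The ratio of effector and BH3-only to prosurvival transcripts was 0.826, 0.807 and 0.730 in oeNC and 0.697, 0.989 and 0.729 in oeSTUB1. In these sums replicate 2 of oeSTUB1 had the highest ratio of all 6 libraries and the other oeSTUB1 libraries the lowest. However, oeSTUB1 replicate 3 (0.729) was nearly equal to oeNC replicate 3 (0.730). The order therefore holds only for the genes summed. These leave out BAD, a BH3-only gene outside the members that was called higher. BAD measured 14.64, 13.74 and 15.05 FPKM in oeNC and 19.96, 28.82 and 19.53 FPKM in oeSTUB1. BAD is named here because of its call, so a sum with BAD added would not describe the BH3-only genes as a set. Other BCL2-family genes outside the members were left out too. Among them are BOK, at 5.82 to 8.80 FPKM and not called, and BCL2A1, at up to 4.59 FPKM and called higher. The sums also leave out HRK, a BH3-only gene called lower, at no more than 0.366 FPKM in any library. In bulk RNA, a lower level in each cell and fewer cells with that level cannot be told apart.

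The deviation of oeSTUB1 replicate 2 from replicates 1 and 3 moved with gene length among the members as among all genes. Spearman's rho between the recovered length and that deviation was -0.657 over the 43 genes and -0.556 over the 15353 genes, where all points share the same 3 libraries. In the 6 members under 2000 bases the median deviation was 0.34 on the log2 scale and 5 were above 0, and in the 13 members of 5000 bases and over it was -0.27 and 2 were above 0. Over all genes these medians were 0.33 and -0.29. PHLDA3 (0.65), FDXR (0.57), BAX (0.56), TP53I3 (0.54) and SFN (0.48) were most above 0, and APAF1 (-0.57) and TP53INP1 (-0.53) were most below. Replicate 3 of oeNC was the highest of all 6 libraries in 11 members, among them GADD45B, PMAIP1 and BBC3, and the lowest in 11, among them CDKN1A, SESN1 and BTG2. Outside the members it was the highest for the p53 and stress targets SESN2, at 6.24 FPKM against 2.75 and 2.36 FPKM in the other oeNC libraries, and GDF15, at 52.55 FPKM against 24.9 and 27.5 FPKM, and the lowest for TNFRSF10D, at 6.36 FPKM against 11.6 and 12.1 FPKM, all picked after their values were seen. What set these libraries apart was not tested.

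**Figure D4:**
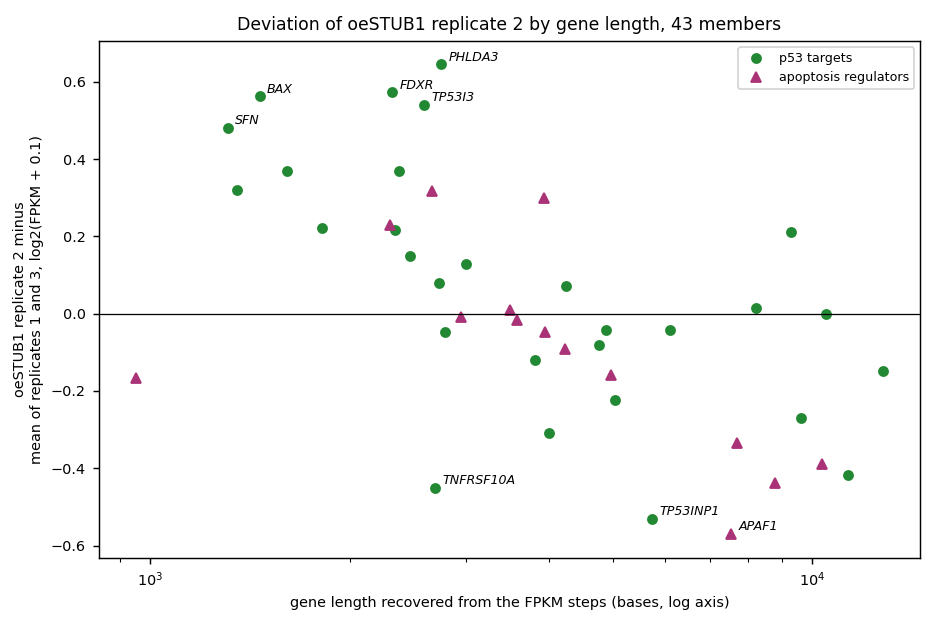
Deviation of oeSTUB1 replicate 2 from the mean of replicates 1 and 3 (log2 of FPKM + 0.1) against the gene length recovered from the FPKM steps (bases, log axis) for the 29 p53 targets (circles) and 14 apoptosis regulators (triangles). Short genes such as BAX and SFN lie above 0 and long genes such as APAF1 below it, with Spearman's rho of -0.657 over the 43 points.

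Further genes of the same pathways, listed by function with earlier results of these data known, were set beside the members. Of 33 other p53 targets 32 were tested, and 2 were higher (KITLG and DRAM1) and 5 lower (PERP, ANKRA2, EPS8L2, CYFIP2 and ABHD4), 21.9% of those tested against 13.6% of all genes, with a median log2 fold change of 0.08. KITLG, the ligand of the KIT receptor, measured 3.07, 3.21 and 3.87 FPKM in oeNC and 7.11, 6.33 and 9.24 FPKM in oeSTUB1 (log2 fold change 1.13, adjusted p = 0.00341). CYFIP2, a subunit of an actin regulatory complex, measured 14.6, 15.4 and 14.04 FPKM in oeNC and 12.2, 8.88 and 11.2 FPKM in oeSTUB1, the largest fall of this list (log2 fold change -0.46, adjusted p = 0.0482). ANKRA2, an ankyrin repeat protein, measured 6.87, 6.85 and 7.19 FPKM in oeNC and 5.38, 5.36 and 5.72 FPKM in oeSTUB1 (-0.34, adjusted p = 0.034). For these 3 genes the libraries of the groups did not overlap. KITLG was called in all 16 alternative analyses. The CYFIP2 call was lost without any oeNC replicate or oeSTUB1 replicate 3 (adjusted p from 0.0827 to 0.178), and that of ANKRA2 without any of these or oeSTUB1 replicate 1 (0.0595 to 0.133). Without oeSTUB1 replicate 2 this list counted 4 higher and 6 lower, where 14.8% of all genes were higher and 12% lower.

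Of 30 other apoptosis genes 27 were tested, and 6 were higher (BCL2A1, TNFSF10, ENDOG, BAD, BAG1 and BNIP3) and 1 was lower (HRK), 25.9% of those tested against 13.6% of all genes, with a median log2 fold change of 0.18. The largest rise was that of BCL2A1, a prosurvival member of the BCL2 family outside the 43 genes. It measured 0.103, 0.725 and 0.684 FPKM in oeNC, on 3, 21 and 21 fragments, and 3.16, 4.59 and 2.49 FPKM in oeSTUB1, on 91, 127 and 71 fragments. The log2 fold change was 2.74 (SE 0.519, adjusted p = 0.0127), and even in oeSTUB1 BCL2A1 stayed far below MCL1 and BCL2L1 in FPKM. TNFSF10, the ligand of TNFRSF10A and TNFRSF10B, measured 0.212, 0.164 and 0.364 FPKM in oeNC and 0.670, 0.819 and 0.657 FPKM in oeSTUB1 (log2 fold change 1.27, adjusted p = 0.0134). HRK, a BH3-only gene, measured 0.345, 0.298 and 0.366 FPKM in oeNC and 0.0428, 0.0990 and 0.115 FPKM in oeSTUB1, on 63 to 82 and 9 to 24 fragments (log2 fold change -1.25, adjusted p = 0.0135). BCL2A1 was called in all 16 alternative analyses, and its estimate was 2.08 without oeNC replicate 1 (adjusted p = 0.00561), the library with 3 fragments. The TNFSF10 call was lost without oeNC replicate 1 (1.21, adjusted p = 0.0578) or oeNC replicate 2 (1.09, adjusted p = 0.0525), and the HRK call without oeNC replicate 1 (-1.24, adjusted p = 0.0616) or oeNC replicate 3 (-1.20, adjusted p = 0.062). Without oeSTUB1 replicate 2 this list counted 11 higher and 3 lower, against 26.8% of all genes called. The log2 fold changes of BCL2A1, TNFSF10 and HRK were each larger in size than that of any called member.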

How the data were processed

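The authors deposited FPKM values for 23569 genes in 6 libraries, identified by symbol. The submitters' processing notes name fastp 0.20.1, HISAT2 2.1.0, HTSeq 0.11.2, R 3.2.0, DESeq2 1.22.2 and the build GRCh38.p13. The gene annotation and the strand setting of the counting are not given in the sources used here. Shares of exonic bases taken from GENCODE may therefore differ from those of the genes as counted. The libraries were made from total RNA with a VAHTS Universal V6 kit. The sample labels gave each library its group and number. Value columns without a sample numbered 0.

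Since FPKM are not counts, log2(FPKM + 0.1) was fitted with limma 3.58.1 in R 4.3.3 (eBayes with a trend, two-sided), keeping genes whose mean was 0.1 FPKM or more, with Benjamini-Hochberg adjustment over all of them. Fold changes of low genes are understated on this scale. Fragments were recovered from the FPKM steps as whole numbers (tolerance 0.0001) for 23569 genes (100%), possibly too low by a common divisor together with the gene length. They gave library totals of 33106564 to 36744521 and served a limma-voom alternative. Within each group the libraries differed beyond sampling noise (chi-square per degree of freedom 3.48 to 82.6). Each library was fitted as 1 replicate. That excess may be technical and does not show that the libraries came from separate cultures. Same-numbered libraries of the groups did not deviate together (correlations of -0.05, -0.05 and 0.06), so the numbers were not treated as pairs.

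The members and the gene lists were chosen with earlier results of these data known. Values by library are given for called members whose higher group averaged 1 FPKM or more, for MDM2, CDKN1A, BAX, BBC3, PMAIP1, FAS, BCL2, BCL2L1, MCL1, BCL2L11 and CASP8 whatever their result, for STUB1, and for the 3 largest rises and 3 largest falls called in the lists of other p53 targets and other apoptosis genes. Other genes named by library were chosen after their values were seen. Gene positions are from GENCODE release 29 on GRCh38, and promoter windows and chromosomes from RefSeq on GRCh38.p14. The fit was tested on simulated data. Alternatives were other pseudocounts, filters, scalings and variance settings, a replicate block, leaving out each library and, added after seeing the data, a lowess correction for gene length. Python 3.11.15 was used for the other steps.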

Additional observations from a re-analysis of the deposited data

How the results depend on the processing

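The 6 called members kept their direction in all 96 refits and stayed called in 73 of them. Of 589 refits of the other 37 members, 18 passed the threshold in the main direction and 27 in 14 members turned the sign. Over all genes, 2088 were called, the fewest being 933 (oeNC replicate 2 left out) and the most 4112 (oeSTUB1 replicate 2 left out). Other counts of calls over all genes were 1799 without a filter, 1512 with a filter at 1 FPKM, 965 without oeNC replicate 1, 1041 without oeNC replicate 3, 1407 without oeSTUB1 replicate 1 and 3322 with the gene-length correction, which was added after seeing the data. That correction gave 8 higher and 5 lower members.

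For the p53 targets, no gene was called higher with an absolute log2 fold change over 1 (0), 1 was lower after quantile normalization and 2 with the gene-length correction. For the apoptosis regulators, 1 was higher without a filter, after median-ratio scaling or after quantile normalization, 0 without a trend or with a fold change over 1, and 4 with the length correction, while 1 was lower with a pseudocount of 1, without a trend or by limma-voom, and 3 with the length correction. For the other p53 targets, 4 were higher with the length correction and 1 with a fold change over 1, and 3 were lower without a filter or by limma-voom, 1 without a trend and 0 with a fold change over 1. For the other apoptosis genes, 3 were higher without a filter or without a trend, 10 with the length correction and 2 with a fold change over 1, and 0 were lower with a filter at 1 FPKM and 2 after quantile normalization or with the length correction. Leaving out each library in turn gave 1 to 4 p53 targets higher and 0 to 3 lower, 0 to 4 apoptosis regulators higher and 0 to 1 lower, 2 to 4 other p53 targets higher and 0 to 6 lower, and 1 to 11 other apoptosis genes higher and 0 to 3 lower. With fewer libraries the fits had fewer degrees of freedom, and otherwise the cause was not tested.

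With the replicate number as a block, 1488 genes were called, 4 members were higher (CDKN1A, PLK2, PLK3 and TIGAR) and 0 lower, so the apoptosis regulators had 0 higher and the other p53 targets 0 lower. The numbers did not pair the samples, and this block result is given for completeness.

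The log2 fold change turned for BAX to -0.0071 after median-ratio scaling, -0.0991 after quantile normalization and -0.0649 with the length correction, for POLH to -0.0122 after median-ratio scaling, for TP53INP1 to 0.0061 after quantile normalization and for APAF1 to 0.0106 with the length correction. Leaving out single libraries, the estimate ran from -0.0473 to 0.20 for SFN, -0.13 to 0.15 for TP53INP1, -0.0399 to 0.13 for ZMAT3, -0.14 to 0.0168 for TNFRSF10B, -0.17 to 0.11 for BAX, -0.20 to 0.24 for PMAIP1, -0.0164 to 0.27 for TP53I3, -0.0509 to 0.0276 for XPC, -0.14 to 0.0103 for DDB2, -0.10 to 0.15 for POLH, -0.27 to 0.0862 for FDXR, -0.16 to 0.15 for APAF1, -0.0027 to 0.15 for CASP9 and -0.22 to 0.0004 for XIAP. No scaling moved the median of all genes by over 0.1. At 52 to 96 fragments for BCL2 and 8 to 17 for BIK, small differences in these genes were not detectable at this depth.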
